A study of Homo sapiens with 6 samples.

Results

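Proteasome genes were examined in SK-Hep1 cells with and without knockdown of the long non-coding RNA *RAB30-DT*. Members were the protein-coding genes whose symbol begins with PSMA, PSMB, PSMC, PSMD, PSME, PSMF or PSMG, which gave 50 of the 62700 genes in the files. Of these, 32 encode constitutive or tissue-specific subunits of the core particle or subunits of the regulatory particle. Another 16 encode alternative catalytic subunits, assembly chaperones, activators or an inhibitor. The other 2, *PSMC3IP* and *PSME3IP1*, were taken by their symbol and placed in none of these roles. The series held 3 libraries of control cells and 3 of knockdown cells, all of the human line SK-Hep1, which the paper describes as derived from endothelium. Control libraries carry shControl in their title but WT as their genotype, and the knockdown libraries are of cells with an shRNA against *RAB30-DT*, delivered by lentivirus and kept as stable lines by puromycin selection. RNA was extracted, purified on poly-T beads and sequenced, and expression is given as TPM, a transcript level that allows for the length of a gene and adds up to the same total in each library. Values of single libraries are listed below in the order of replicates 1, 2 and 3. Nothing in the labels says that the 3 libraries of a group came from separate cultures, so the p-values measure only the spread between these libraries.

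The proteasome degrades proteins that carry ubiquitin chains. Its barrel-shaped core, built of alpha and beta rings, holds the proteolytic sites, and a regulatory particle with an ATPase base and a lid recognises, unfolds and feeds in the substrate. Dedicated chaperones assemble the complex, other activators can replace the regulatory particle, and cells exposed to interferon swap the catalytic subunits for those of the immunoproteasome, which favours peptides for antigen presentation.

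The level of *RAB30-DT* itself was 18.16, 11.51 and 13.91 TPM in the 3 control and 11.94, 10.85 and 6.5 TPM in the 3 knockdown libraries. The groups overlapped, since knockdown replicate 1 was above control replicate 2. The log2 fold change of −0.55 (standard error 0.27) did not pass the threshold (adjusted p = 0.355, limma). The paper also reports a qPCR check of the knockdown in SK-Hep-1 cells, which is not part of these data. Of the fixed marker lists, the 5 endothelial genes were below 1 TPM in every library, as were the 5 leukocyte genes and 4 of 5 hepatocyte genes, of which *ALB*, *TTR* and *HNF4A* were at 0 throughout. The hepatocyte list summed to between 18.1 and 23.96 TPM in the 3 control and between 28.3 and 37.2 TPM in knockdown libraries, nearly all of it *SERPINA1*. The mesenchymal list summed to between 3908 and 4168 TPM in the 3 control and between 4458 and 4902 TPM in knockdown libraries, most of it *VIM*. *THY1* of the same list went the other way, with all 3 knockdown libraries below the controls. It had 148, 142 and 102 TPM in the control and 76.0, 92.8 and 98.7 TPM in the knockdown libraries. The groups overlapped in *FN1*, *COL1A1* and *COL1A2*. The endothelial list summed to between 0.13 and 0.22 TPM in control and between 0.36 and 0.38 TPM in knockdown libraries, and the leukocyte list to between 0.15 and 0.17 TPM and between 0 and 0.12 TPM. The part of these differences in the results on proteasome genes was not tested.

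All 31 tested genes of the core, the base and the lid had an estimate below 0 in knockdown against control libraries, or all but 4 core genes with quantile normalization, and 1 of the 31, in the lid, passed the test over all genes. The 32 subunit genes of the core and regulatory particles summed to 7082, 7184 and 8176 TPM in the 3 control and to 5323, 5449 and 5660 TPM in the 3 knockdown libraries. The knockdown mean of 5477 ± 170.0 TPM (SD, n = 3) was 73.2% of the control mean of 7481 ± 604 TPM (SD, n = 3). The highest knockdown library was thus below the lowest control library. In bulk RNA, fewer cells that express a gene and less of its RNA per cell cannot be told apart, and TPM give only a share of all RNA.

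Of the 50 genes, 48 had a mean of at least 1 TPM and were tested, and the filter removed *PSMA8*, the testis-specific alpha subunit, and *PSMB11*, the thymus-specific beta subunit. *PSMA8* was at 0 in all libraries and *PSMB11* was at 0 in all but knockdown replicate 3, which had 0.12 TPM. Differences were tested with limma on log2(TPM + 1) over all 14020 genes of that level, with Benjamini-Hochberg adjustment, and a gene was called at an adjusted p under 0.05. Of the 48, 1 gene, *PSMD11*, was called lower, where 0.67% of all tested genes were called lower, and 0 were called higher, where 0.371% of all tested genes were. At an unadjusted p under 0.05, 19 of 48 (39.6%) were lower, against 9.7% of all tested genes, and 0 were higher, against 7.06%.

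The direction was shared far more widely than the calls. The log2 fold change was below 0 for 43 of 48 genes, or for 37 of 48 with quantile normalization, and its median was −0.39, or −0.22 with quantile normalization. Over all tested genes the median was −0.04 and 7531 of 14020 (53.7%) were below 0. Among the 6188 genes whose mean was at least that of *PSME4*, the lowest of the tested proteasome genes with 19.4 TPM, the median was −0.11 and 62.1% were below 0, and with quantile normalization their median was 0.0034. In 22 of 48 genes (45.8%) all 3 knockdown libraries lay below the lowest control library, a pattern shown by 13.4% of all tested genes and by 18.7% of those at or above the level of *PSME4*. In 0 of 48 did all 3 knockdown libraries lie above the highest control library, which was the case for 9.89% of all tested genes. Of the 6188 genes at or above the level of *PSME4*, 885 were lower and 415 higher at an unadjusted p under 0.05.

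**Figure D1:**
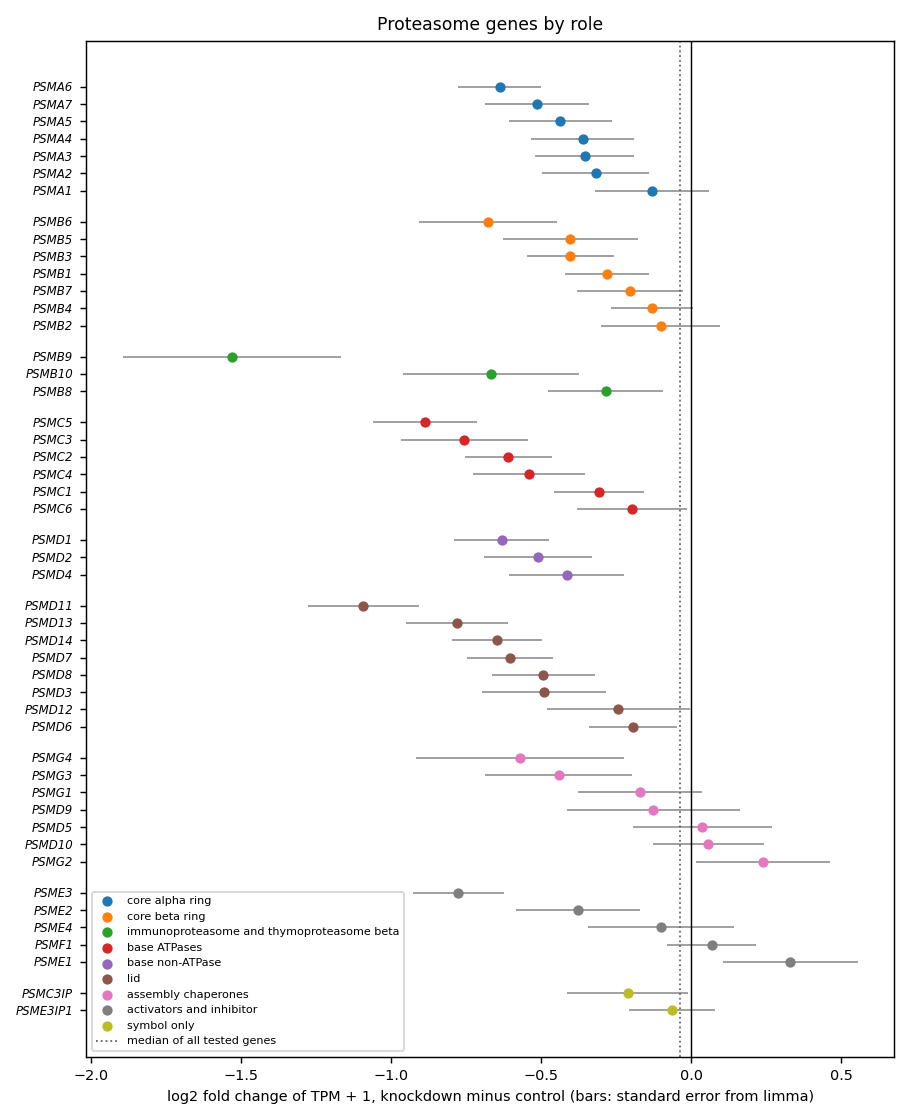
Log2 fold change of TPM + 1 (x axis, knockdown minus control) for the 48 tested proteasome genes, grouped and coloured by role, with limma's standard error as bars and the median of all tested genes as a dotted line. In all, 43 points lie below 0 (37 with quantile normalization), with PSMB9, PSMD11 and PSMC5 farthest left and PSME1 and PSMG2 farthest right.

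The shift was present in each knockdown library. Taken against the mean of the 3 control libraries, the median deviation of the 48 genes was −0.55, −0.37 and −0.34 on the log2 scale in the knockdown libraries, with 40, 42 and 44 genes below that mean. It was −0.09, −0.04 and 0.07 in the control libraries. Over all tested genes the same median was between −0.10 and 0.07 in the 6 libraries.

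**Figure D2:**
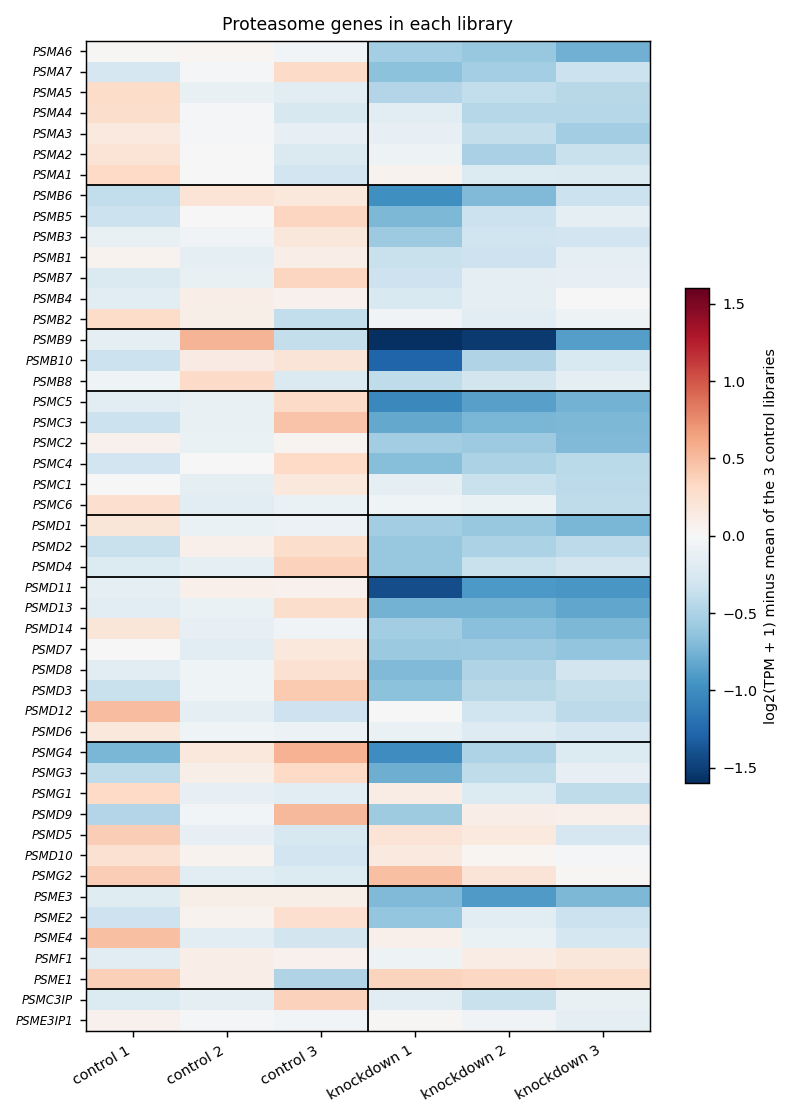
Deviation of log2(TPM + 1) from the mean of the 3 control libraries for each tested proteasome gene (rows, blocks by role in the order of the plot of fold changes) in each library (columns). Blue, a lower level, fills most of the 3 knockdown columns, whose medians are −0.55, −0.37 and −0.34, and is paler in the blocks of assembly chaperones and activators.

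The lid of the regulatory particle held the only called gene. *PSMD11* (ENSG00000108671.11), a lid subunit that helps to hold lid, base and core together, spans bases 32444379 to 32483319 of chromosome 17 (hg38, plus strand). It had 144, 169 and 169 TPM in the 3 control and 59.0, 84.0 and 83.2 TPM in the 3 knockdown libraries. The lowest control library was well above the highest knockdown library, and the mean fell to 47.0% of the control mean. This is a log2 fold change of −1.09 with a standard error of 0.18 (adjusted p = 0.0417, limma). Over 18 alternatives the adjusted p ranged from 0.00189 to 0.174 and passed the threshold in 9. The call was lost without control replicate 2 or 3 and without knockdown replicate 1, 2 or 3, with log2 fold changes between −1.18 and −0.93 over the fits that left out 1 library.

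A 7-base sequence, GAGTGAA, that had stood out in earlier results of these data was looked for in the 3′UTR of the canonical transcripts. It was present in 2 of 47 proteasome genes (4.26%), *PSMD11* and *PSME4*, and in 1446 of 11539 tested protein-coding genes (12.5%). The 30 bases around each match are shown because one of them is in the only called gene, 5′ to 3′ on the strand of the gene with the match in capitals. They lie at chr17:32480785-32480814 (plus strand) and chr2:53864318-53864347 (minus strand) of hg38.
PSMD11 3′UTR: gtgtggcgggaGAGTGAAaccttgggggaa
PSME4 3′UTR: acaagtttataGAGTGAAaggtatcttctg
*PSMD11* was called lower and *PSME4* had a log2 fold change of −0.10 (adjusted p = 0.871, limma). The difference between both carriers was not tested.

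The other 7 lid genes all had estimates below 0, with log2 fold changes from −0.78 to −0.20. In 6 of them the groups did not overlap, with the knockdown lower. That pattern was shown by 13.4% of all tested genes and 18.7% of those at or above the level of *PSME4*. In *PSMD12*, a scaffold subunit of the lid, the groups overlapped, and its estimate of −0.24 was between −0.41 and 0.0020 with 1 library left out. *PSMD13*, another structural lid subunit and the least expressed of the 8 with 84.6 TPM over all libraries, had 94.3, 99.3 and 129 TPM in the 3 control and 62.6, 62.6 and 59.8 TPM in the 3 knockdown libraries. Its knockdown libraries lay close together and all below the controls, and its log2 fold change was −0.78 (adjusted p = 0.0800, limma). *PSMD14*, the deubiquitinase that removes ubiquitin chains from the substrate, had −0.65 (adjusted p = 0.0915), and *PSMD7*, its partner in the lid, −0.60 (adjusted p = 0.0954). *PSMD3* had the highest level of the lid genes, with a mean of 275 TPM over all libraries.

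The base unfolds the substrate. Its 6 ATPase genes had estimates from −0.89 to −0.20 with a median of −0.58. Of the 6, 4 did not overlap between groups, with the knockdown lower. That pattern was shown by 13.4% of all tested genes and 18.7% of those at or above the level of *PSME4*. *PSMC5* (ENSG00000087191.14, chromosome 17, plus strand, 63827152 to 63832026), the most expressed of the 6 with a mean of 261 TPM, had 295, 309.6 and 417 TPM in the control libraries. In knockdown replicates 1, 2 and 3 it had 164, 184 and 198 TPM. Each knockdown library was thus below the lowest control, with a log2 fold change of −0.89 (standard error 0.17) that missed the threshold (adjusted p = 0.0603, limma). Over the alternatives its adjusted p ranged from 0.00240 to 0.257 and passed in 5 of 18. *PSMC3* had 158, 185 and 277 TPM in the 3 control and 113, 121 and 122 TPM in the 3 knockdown libraries, so that its control libraries were spread far more widely than its knockdown libraries (−0.76, adjusted p = 0.137). *PSMC6*, the least expressed with 87.8 TPM, had −0.20 and overlapped.

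The 3 non-ATPase subunits of the base, the scaffolds *PSMD1* and *PSMD2* and the ubiquitin receptor *PSMD4*, were each lower in every knockdown library than in any control library. This pattern was shown by 13.4% of all tested genes and by 18.7% of those at or above the level of *PSME4*. The log2 fold changes of the 3 subunits were −0.63, −0.51 and −0.42, with adjusted p of 0.108, 0.214 and 0.321 from limma. *PSMD1* was the least expressed of all 31 tested core, base and lid genes with 79.3 TPM over all libraries, and *PSMD2* the most expressed of this group with 283 TPM.

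**Figure D3:**
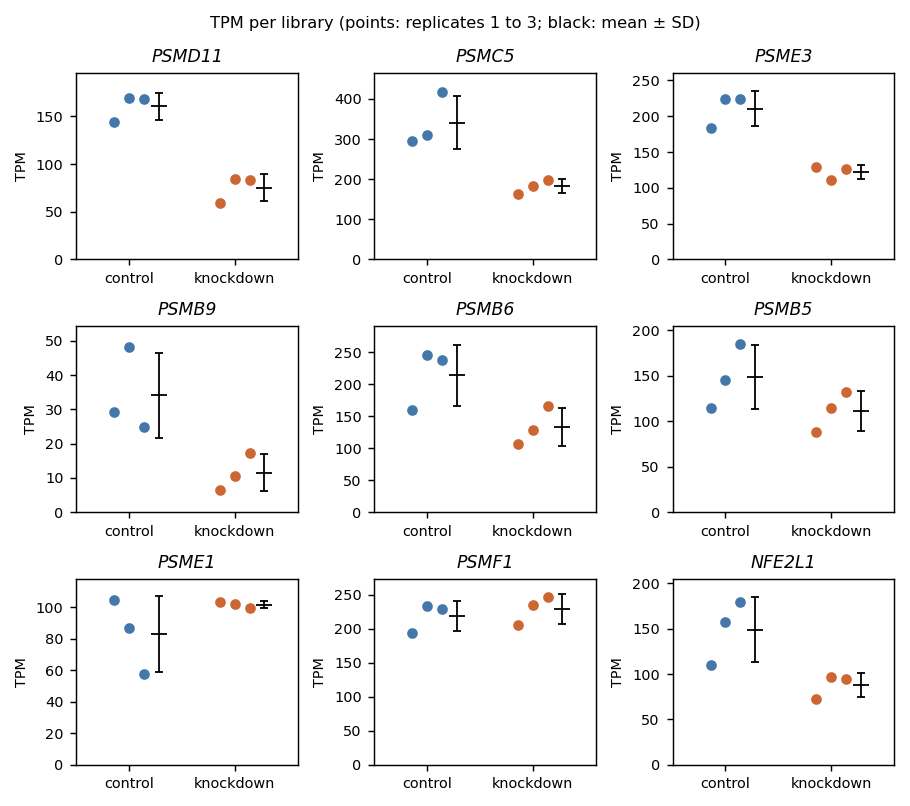
TPM (y axis, from 0) of 8 proteasome genes and NFE2L1 in each of the 3 control and 3 knockdown libraries (points), with mean and SD in black. PSMD11, PSMC5, PSME3, PSMB9 and NFE2L1 do not overlap between groups, whereas PSMB6, PSMB5, PSME1 and PSMF1 do.

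In the core, all 7 tested alpha ring and all 7 constitutive beta ring genes had estimates below 0, although with quantile normalization those of *PSMA1* (0.05), *PSMB2* (0.02), *PSMB4* (0.06) and *PSMB7* (0.0048) were above it. The alpha ring, which gates the entrance to the barrel, had a median of −0.36 and the beta ring −0.28. All 3 knockdown libraries lay below the controls in 4 of 7 alpha and 2 of 7 beta genes. That pattern was shown by 13.4% of all tested genes and 18.7% of those at or above the level of *PSME4*. *PSMA6* had the lowest estimate of the alpha ring (−0.64, adjusted p = 0.0800, limma), with 175, 176 and 167 TPM in the 3 control and 118, 113 and 101 TPM in the 3 knockdown libraries. *PSMA7* was the most expressed proteasome gene, with 635 ± 130.1 TPM in the 3 control and 440.2 ± 48.0 TPM in knockdown libraries (SD, n = 3 each), and *PSMA5* the least expressed tested alpha gene with 98.4 TPM over all libraries. Of the beta ring, *PSMB4* had the highest mean level, 472 TPM, and *PSMB2* the lowest, 98.6 TPM.

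The 3 proteolytic subunits of the constitutive core differed in their estimates and all overlapped between groups. *PSMB6*, which cuts after acidic residues, had 159, 246 and 237 TPM in the 3 control and 106, 129 and 165 TPM in the 3 knockdown libraries. Only knockdown replicate 3 reached the range of the controls (−0.68, standard error 0.23, adjusted p = 0.195, limma). *PSMB5*, the chymotrypsin-like subunit and the target of proteasome inhibitors such as bortezomib, had −0.40 (adjusted p = 0.407). *PSMB7*, the trypsin-like subunit, had −0.20 (adjusted p = 0.590). Without control replicate 3 these were −0.23 and −0.03, *PSMB5* was −0.25 without knockdown replicate 1, and *PSMB7* was −0.32 without control replicate 1.

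*PSMB9*, the immunoproteasome subunit that takes the place of *PSMB6*, had the lowest estimate of all 48 genes. The gene (ENSG00000240065.8) spans bases 32844136 to 32859851 of chromosome 6 (hg38, plus strand). It had 29.3, 48.3 and 24.95 TPM in the 3 control and 6.49, 10.7 and 17.3 TPM in the 3 knockdown libraries. No knockdown library reached a control library, but both groups were widely spread, and the log2 fold change of −1.53 (standard error 0.36) did not pass the threshold (adjusted p = 0.0949, limma). The adjusted p ranged from 0.00229 to 0.328 over the alternatives and passed in 2 of 18. Of the other inducible subunits, *PSMB10*, which replaces *PSMB7*, had −0.67 (adjusted p = 0.304) and *PSMB8*, which replaces *PSMB5*, had −0.28 (adjusted p = 0.4996), and both overlapped between groups. *PSMB10* was −0.36 without knockdown replicate 1 and *PSMB8* −0.13 without control replicate 2. *PSMB8* and *PSMB9* share 139 exonic bases on opposite strands, and the sources used here do not state whether reads were counted by strand.

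The ratio of each inducible subunit to the one it replaces does not depend on the scaling of a library. The log2 ratio *PSMB9*/*PSMB6* was −2.44, −2.35 and −3.25 in the control libraries and −4.03, −3.59 and −3.26 in the knockdown libraries. The highest knockdown value lay just below the lowest control value. The mean was −2.68 ± 0.50 in control and −3.62 ± 0.39 in knockdown libraries (SD, n = 3 each), a difference of −0.94 for which a two-sided exact permutation test gave p = 0.1 (0.3 adjusted over the 3 pairs). This is the smallest p that 3 libraries against 3 allow, so the test could not pass 0.05. *PSMB10*/*PSMB7* differed by −0.49 (exact permutation p = 0.3, 0.45 adjusted) and *PSMB8*/*PSMB5* by 0.12 (exact permutation p = 0.9, 0.9 adjusted), with overlap in both. The *PSMB10*/*PSMB7* difference was −0.23 without knockdown replicate 1. The *PSMB8*/*PSMB5* difference was −0.18 without control replicate 3, and 0.25, 0.27, 0.02 and 0.18 without control replicates 1 and 2 and knockdown replicates 1 and 3.

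**Figure D4:**
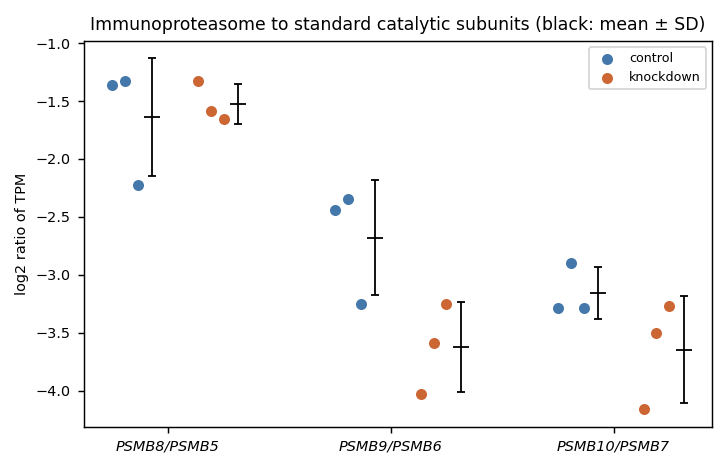
Log2 ratio of TPM (y axis) of each immunoproteasome catalytic subunit to the constitutive subunit it replaces, in each control and knockdown library (points), with mean and SD in black. For PSMB9/PSMB6 the knockdown libraries lie between −4.03 and −3.26, just below the lowest control value of −3.25, whereas the other pairs overlap.

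The estimates of the alternative activators differed in sign. *PSME3*, which forms a nuclear activator that works without ubiquitin, had 183, 225 and 224 TPM in the 3 control and 128, 111 and 127 TPM in the 3 knockdown libraries. The groups were clearly apart, but the log2 fold change of −0.78 (standard error 0.15) missed the threshold (adjusted p = 0.0616, limma) and passed it in 5 of 18 alternatives, over which the adjusted p ranged from 0.00124 to 0.314. *PSME1* and *PSME2* encode the partners of the interferon-inducible activator. *PSME1* had the highest estimate of all 48 genes, 0.33 (adjusted p = 0.503), with 105, 87.0 and 57.5 TPM in the 3 control and 104, 102 and 99.4 TPM in the 3 knockdown libraries. Control replicate 3 was the lowest library by far, and the estimate was 0.09 without it and 0.52 without control replicate 1. *PSME2* had −0.38 (adjusted p = 0.39995), and −0.24 without control replicate 3. *PSME4*, an activator known from DNA repair and sperm development, had −0.10 (adjusted p = 0.871) and was above 0 without control replicate 1 (0.14), and *PSMF1*, an inhibitor of the core in vitro and the most expressed of this group with 224 TPM, had 0.07 (adjusted p = 0.855) and was below 0 without that library (−0.02).

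The 7 assembly chaperones overlapped between groups in every case, with estimates from −0.57 to 0.24 and a median of −0.13, or 0.02 with quantile normalization. The pair *PSMG1* and *PSMG2*, which starts the alpha ring, had −0.17 and 0.24 (adjusted p = 0.716 and 0.622, limma). *PSMG3* and *PSMG4*, which act on the same ring, had −0.44 and −0.57 (adjusted p = 0.407 and 0.447). The base chaperones *PSMD5*, *PSMD9* and *PSMD10* had 0.04, −0.13 and 0.06. These had no stable sign, as with 1 library left out they ran from −0.09 to 0.23, from −0.36 to 0.13 and from −0.09 to 0.18. Chaperone levels ran from 30.9 TPM for *PSMD5* to 84.4 TPM for *PSMG1*. Of the genes placed in no role, *PSMC3IP*, a meiotic recombination factor, had −0.21 and *PSME3IP1*, a partner of the *PSME3* product, −0.06, and both overlapped. In all, 20 of the 31 tested core, base and lid genes and 2 of the 17 other tested genes did not overlap between groups. The knockdown was lower in all of these. That pattern was shown by 13.4% of all tested genes and 18.7% of those at or above the level of *PSME4*. The difference between these sets was not tested.

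The libraries also differed by base composition within each group, and this touched proteasome genes. Across the 48 genes, the difference between control replicates 3 and 1 went with the GC content of the exons (Spearman's rho 0.716), as did that between knockdown replicates 3 and 1 (0.737). These are descriptions across genes, which share their libraries. Once each library's GC trend had been removed, the same values were 0.0445 and 0.202. The 48 genes still moved together between replicates of a group. Control replicate 3 minus replicate 1 then had a median of 0.41 over the 48, with 37 above 0. For knockdown replicate 3 minus replicate 1 it was 0.23, with 40 above 0. Over all tested genes these medians were −0.017 and −0.0095. Between the groups the median of the 48 was −0.37 on this scale. The part of this swing within groups in the group difference was not tested. The GC content of the 48 genes ran from 35.1% to 63.0% with a median of 47.3%, near the 48.0% of all tested genes.

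**Figure D5:**
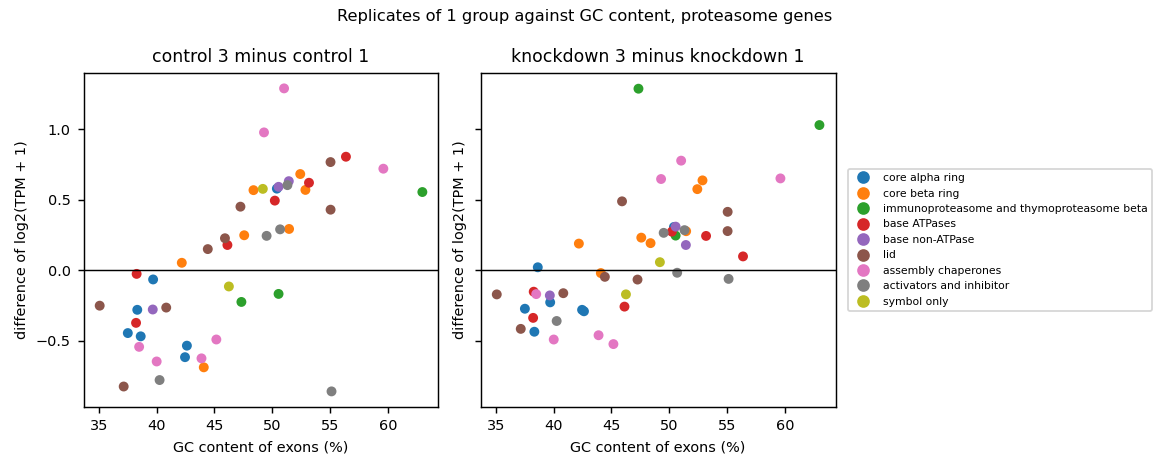
Difference of log2(TPM + 1) between replicates 3 and 1 of the control group (left) and of the knockdown group (right), against the GC content of the exons in percent, for the 48 tested proteasome genes coloured by role. In both groups the difference goes up with GC content, with Spearman's rho of 0.716 and 0.737.

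With that trend removed, 8 of 48 proteasome genes (16.7%) were called lower, against 4.69% of all tested genes, and 0 were called higher, against 3.8%. The 8 were *PSMA4*, *PSMA6*, *PSMC3*, *PSMC5*, *PSMD1*, *PSMD11*, *PSMD13* and *PSME3*, and the median over the 48 was −0.37. With limma's arrayWeights, which gives each library a weight, 23 of 48 (47.9%) were called lower, against 13.8%, and 0 higher, against 9.18%. That fit rested mainly on control replicate 2 and knockdown replicate 2, with weights of 3.00 and 4.39 where the other 4 libraries had at most 0.948. Of the 6188 genes at or above the level of *PSME4*, 461 were called lower with the GC trend removed and 1214 with arrayWeights. Those called higher were 274 and 502.

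Of 38 other genes of the pathway, fixed as a list, 0 were called in either direction with limma, with 8 lower and 3 higher at an unadjusted p under 0.05, where 9.7% and 7.06% of all tested genes were. The median log2 fold change of the list was −0.06, and 21 of 38 were below 0. In 10 of 38 all 3 knockdown libraries lay below the lowest control library and in 3 of 38 above the highest, against 13.4% and 9.89% of all tested genes. All 38 passed the filter. With limma's arrayWeights 11 were called lower and 3 higher, against 13.8% and 9.18%.

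Among the 4 subunits and assembly factors with other symbols, *SEM1*, a small lid subunit, had 416, 609 and 547 TPM in the 3 control and 338, 352 and 411 TPM in the 3 knockdown libraries. The groups were apart by little (−0.50, adjusted p = 0.201, limma). *ADRM1*, a ubiquitin receptor of the base, had −0.61 (adjusted p = 0.333) with overlap, and *POMP*, which matures the core, had −0.03 (adjusted p = 0.950), a sign that turned with quantile normalization (0.16). *PAAF1*, a base chaperone, had 0.15 (adjusted p = 0.710).

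*NFE2L1* encodes a transcription factor known to drive proteasome genes when the proteasome is inhibited. It had 110.0, 157 and 180 TPM in the 3 control and 72.4, 97.2 and 94.3 TPM in the 3 knockdown libraries. The groups did not overlap, and the estimate was −0.74 with a standard error of 0.22 (adjusted p = 0.152, limma). *NGLY1*, which processes the *NFE2L1* protein, had 0.12 and *NFE2L2*, a related factor of the oxidative stress response, 0.08 (from −0.29 to 0.43 with 1 library left out), both with overlap. All 5 genes of the VCP segregase group, which pulls ubiquitinated proteins out of complexes and membranes, were below 0, except *FAF2*, which was above it with quantile normalization (0.02) and reached 0.09 with 1 library left out. In 3 of the 5 all knockdown libraries lay below the controls, against 13.4% of all tested genes and 18.7% of those at or above the level of *PSME4*. *VCP* itself had 212, 177 and 202 TPM in the 3 control and 127, 131 and 126 TPM in the 3 knockdown libraries, so that its knockdown libraries lay close together (−0.61, adjusted p = 0.0873). The 6 shuttle factors, which bring substrates to the proteasome, had a median of −0.33 and the 4 proteasome-bound enzymes 0.05.

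The ubiquitin genes went in both directions. *UBB*, a polyubiquitin gene, had 3048, 3465 and 3520 TPM in the 3 control and 2401, 2359 and 2523 TPM in the 3 knockdown libraries (−0.46, adjusted p = 0.0820, limma). *RPS27A*, which encodes ubiquitin fused to a ribosomal protein, had all 3 knockdown libraries above the highest control library, with a log2 fold change of 0.62 (adjusted p = 0.112, limma).

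Of the 11 antigen presentation genes, 1 was lower and 1 higher in all 3 knockdown libraries, near the 13.4% and 9.89% of all tested genes. *IRF1*, an interferon-induced factor known to drive *PSMB9*, had 20.6, 87.0 and 28.1 TPM in the 3 control and 9.62, 10.7 and 10.8 TPM in the 3 knockdown libraries. Control replicate 2 was far above the other libraries, as it was the highest for *PSMB9*, and the log2 fold change of −1.74 (standard error 0.46, adjusted p = 0.121, limma) was −1.14 at its smallest when 1 library was left out. *HLA-B*, a class I heavy chain, had 46.5, 57.3 and 42.7 TPM in the 3 control and 58.7, 68.7 and 74.8 TPM in the 3 knockdown libraries (0.46, adjusted p = 0.255, limma). *TAP1*, a peptide transporter gene that lies on the opposite strand within the span of *PSMB9* given above, had 0.23 (adjusted p = 0.640) with overlap, and *TAP2* −0.57 (adjusted p = 0.304) with overlap.

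Proteasome genes lay on 17 chromosomes. Of the 8 on chromosome 17, all had estimates below 0 and 5 did not overlap, with the knockdown lower. That pattern was shown by 13.4% of all tested genes and 18.7% of those at or above the level of *PSME4*. The median of the 8 was −0.58, against −0.06 for the 908 tested genes of that chromosome. On chromosome 14 the 7 tested genes had a median of −0.36, against −0.06 for the 450 tested genes there.

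Promoters were read from 250 bases before to 50 bases after the starts listed by RefSeq on GRCh38.p14, for 42 of the 48 tested genes with an entry (*PSMA7*, *PSMB1*, *PSMB6*, *PSMB7*, *PSMD4* and *PSMG3* had none) and for 9517 tested genes in all. Motifs were searched on both strands, and a gene was counted when any of its listed starts held the letters. The *NFE2L1* and *NFE2L2* products are known to bind the antioxidant response element. Its core, TGACNNNGC, was in 15 of 42 (35.7%), against 19.3% of all tested genes. The 15 were *PSMA4*, *PSMB3*, *PSMB9*, *PSMC4*, *PSMC5*, *PSMD1*, *PSMD3*, *PSMD5*, *PSMD9*, *PSMD12*, *PSME1*, *PSME2*, *PSME4*, *PSMG1* and *PSMG2*. Carriers thus included *PSMB9* and *PSMC5*, with low estimates, and *PSME1* and *PSMG2*, with the highest (0.33 and 0.24). Any link between this element and the fold changes was not tested. The CCAAT box core CCAAT was in 21 of 42 (50%), against 43.6%, and the ETS core CCGGAAG in 16 of 42 (38.1%), against 23.5%. Part of the interferon-stimulated response element, GAAANNGAA, was in 8 of 42 (19.05%), against 8.66%. The 8 were *PSMA4*, *PSMB4*, *PSMB8*, *PSMB10*, *PSMC2*, *PSME1*, *PSME2* and *PSMG4*, and *PSMB9* was not among them. The E-box CACGTG was in 4 (9.52%), against 12.9%, the hypoxia response element core ACGTG, which the E-box contains, in 10 (23.8%), against 33.2%, and the cAMP response element TGACGTCA in 0 of 42, against 3.95%. These matches are descriptions of letters in a window, and binding was not measured here.

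The windows of the 3 genes with the lowest estimates are shown, as they differ in these letters. Matches to CCAAT and TGACNNNGC on either strand are in capitals. All 3 are on the plus strand, at chr6:32853942-32854241, chr17:63827471-63827770 and chr17:32444260-32444559 of GRCh38.p14.
PSMB9 promoter: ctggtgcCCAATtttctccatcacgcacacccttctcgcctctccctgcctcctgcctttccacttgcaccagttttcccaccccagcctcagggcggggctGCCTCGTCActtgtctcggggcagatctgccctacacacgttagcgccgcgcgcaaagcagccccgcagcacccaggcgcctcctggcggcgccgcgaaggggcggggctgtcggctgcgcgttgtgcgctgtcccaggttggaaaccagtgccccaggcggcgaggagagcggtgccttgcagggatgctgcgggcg
PSMC5 promoter: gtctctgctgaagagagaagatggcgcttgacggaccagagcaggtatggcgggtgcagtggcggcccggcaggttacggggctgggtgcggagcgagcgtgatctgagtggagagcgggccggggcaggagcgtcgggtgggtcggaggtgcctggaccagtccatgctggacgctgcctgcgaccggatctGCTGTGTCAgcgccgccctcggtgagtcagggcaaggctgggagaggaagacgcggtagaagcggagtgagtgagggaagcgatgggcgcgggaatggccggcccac
PSMD11 promoter: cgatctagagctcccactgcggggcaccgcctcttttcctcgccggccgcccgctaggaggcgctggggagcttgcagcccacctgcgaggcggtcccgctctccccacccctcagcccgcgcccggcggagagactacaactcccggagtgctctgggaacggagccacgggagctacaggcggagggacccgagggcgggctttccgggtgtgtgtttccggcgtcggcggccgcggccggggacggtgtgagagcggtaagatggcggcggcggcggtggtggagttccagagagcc
The *PSMB9* window holds both, CCAAT as written and the antioxidant element on the other strand. This *PSMC5* window, one of 2 that RefSeq lists, holds the antioxidant element on the other strand and no CCAAT. *PSMC5* was still counted with the CCAAT carriers, through its other window, which is not shown. The *PSMD11* window, that of the only gene called lower, holds neither.

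Reads of near-identical copies can be assigned to the wrong gene. In these files 44 processed or other pseudogenes carry proteasome symbols, and the highest value of any in any library was 3.13 TPM, for *PSMC1P1*, where its parent *PSMC1* had a mean of 236 TPM over all libraries. Exons of 19 proteasome genes share bases with 23 other genes of at least 1 TPM on average. *NRDE2* covered 76.1% of the exonic bases of *PSMC1*, an lncRNA of 7.72 TPM 31.2% of those of *PSMD7*, *MLX* 30.1% of those of *PSMC3IP* and *FTSJ3* 15.3% of those of *PSMC5*, all on opposite strands. On the same strand, a protein-coding gene of 2.13 TPM covered 39.4% of the exonic bases of *PSMB10*. *PSMD11* shared exonic bases with 1 other gene, which averaged 0.117 TPM.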

How the data were processed

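RNA-Seq covered 6 libraries of SK-Hep1 cells, 3 control and 3 *RAB30-DT* knockdown, grouped by their titles. The authors deposited gene-level TPM values, 1 file per library, rounded to 2 decimals. The submitters' processing notes name fastp, HISAT2 2.0.5 and hg38, whereas the methods name STAR, RSEM and another GENCODE release. All 62700 versioned gene identifiers were those of GENCODE 44, used here for symbols, positions, exon lengths and GC content. TPM keep no read number, so depth is unknown and precision rests on 3 libraries per group. The libraries held between 20127 and 21675 genes above 0.

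The 14020 genes that averaged 1 TPM or more were fitted with limma 3.58.1 (lmFit, eBayes with trend, 2-sided; R 4.3.3) on log2(TPM + 1), with Benjamini-Hochberg adjustment and no block. A fold change on this scale understates that of low genes. Ratios were tested in Python 3.11.15 with scipy 1.17.1. Alternatives were quantile normalization, median-of-ratios scaling, a pseudocount of 0.1 or 5, a filter at 5 TPM or none, robust eBayes or eBayes without trend, limma's arrayWeights, removal of each library's GC trend (loess, span 0.3), a replicate block, and each library left out.

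Members, roles and lists were chosen with earlier results of these data known. By rule, the genes named with values were the called members, the catalytic subunits, activators and inhibitor, the 3 highest and 3 lowest estimates, the highest and lowest levels of each role, *NFE2L1*, *POMP*, *ADRM1*, *SEM1* and *RAB30-DT*. All others were named after their values were seen. The values of 1 gene of the pathway list are not reported here.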

Additional observations from a re-analysis of the deposited data

How the results depend on the processing

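Limits: with 3 libraries per group and unknown depth, a gene that missed the threshold is not shown to be unchanged, and levels are shares of all RNA. The counts of calls below changed with single libraries and with scaling.

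The number of proteasome genes called lower was 1 in the fit described. It was 0 with no low-value filter, with median-of-ratios scaling, with quantile normalization and with eBayes without trend, where 18, 14, 11 and 16 had an unadjusted p under 0.05 (limma). The share of all tested genes under that unadjusted p was not counted in these fits, so nothing is read from those numbers. It was 8 with the GC trend removed and 23 with arrayWeights. Leaving out 1 library gave between 0 and 6, with 6 without control replicate 1 and 0 without each of the other 5. Other genes of the pathway called lower, 0 in the fit described, were 1 with quantile normalization (*UBB*), 5 with the GC trend removed, 11 with arrayWeights and between 0 and 5 with 1 library left out, the 5 without control replicate 1. Those called higher, also 0, were 1 with the GC trend removed, 3 with arrayWeights and between 0 and 1 with 1 library left out, again without control replicate 1. No proteasome gene was called higher in any of the 18 alternatives.

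The median log2 fold change of the 48 genes was −0.22 with quantile normalization, against −0.39, and between −0.44 and −0.31 with 1 library left out, the smallest without control replicate 3. Over all genes, 94 were called lower and 52 higher (35.6% higher), and the share called higher was 46.5% with median-of-ratios scaling (69 and 60) and 48.5% with quantile normalization (83 and 78). Across the fits that left out 1 library, all-gene calls ran from 6 lower and 6 higher (without control replicate 2) to 307 and 182 (without control replicate 1).

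Estimates that changed sign, none of them called, included *PSMB7* with quantile normalization (0.0048), *PSME4* with arrayWeights (0.018) and without control replicate 1 (0.14, in a range down to −0.25 over the fits that left out 1 library), and *PSMF1* without control replicate 1 (−0.018, in a range up to 0.15). *POMP* did so with quantile normalization (0.16), with arrayWeights (0.0069) and without control replicate 1 (0.17) or knockdown replicate 2 (0.0052), and *TAP1* with arrayWeights (−0.015). So did *PSMA1*, *PSMB2*, *PSMB4* and *PSME3IP1* with quantile normalization, *PSMD9* with quantile normalization and arrayWeights, *PSMD10* with arrayWeights, and *PSMA1*, *PSMB2*, *PSMD5*, *PSMD9*, *PSMD10*, *PSMD12*, *FAF2* and *NFE2L2* in at least 1 fit that left out a library. The log2 ratio *PSMB8*/*PSMB5* differed by −0.18 without control replicate 3, against 0.12, and by 0.27 without control replicate 2. What caused these changes was not tested.

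Libraries were not treated as paired by replicate number in the fit described. The deviations of same-numbered libraries from their group means correlated at 0.41, 0.036 and 0.28 for replicates 1, 2 and 3, not all above 0.1. Libraries of replicates 1 and 3 thus shared part of their deviations across the groups. With the GC trend removed the correlations were 0.19, 0.016 and 0.12. A fit with the replicate number as a block called 14 proteasome genes lower, where 550 of all 14020 were, and 12 with the GC trend removed as well, where 603 were. Of the other genes of the pathway it called 8 lower and 1 higher, and 5 and 1 with the GC trend removed as well, where 311 and 425 of all genes were higher.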
